A study of Danio rerio with 28 samples.

Results

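The genes described here encode the proteins of the mitochondrial ribosome. They were taken from the deposited count table as all genes whose symbol starts with mrps or mrpl followed by a digit, which gave 74 of 32520 genes, 28 named for the small subunit and 46 for the large subunit. The mitochondrial ribosome translates the few messenger RNAs of the mitochondrial genome, which code for core subunits of the respiratory chain. Its RNAs come from the mitochondrial genome, but its proteins are encoded in the nucleus, made in the cytosol and imported. Some of these proteins descend from the ribosome of the bacterial ancestor, and others were added later and have no bacterial counterpart. By symbol, 46 of the 74 genes have a bacterial counterpart and 28 do not. Symbols do not always give the place in the ribosome: MRPS18A is a large subunit protein in mammals, and the gene names table lists mrps36 as kgd4, a name that refers to the alpha-ketoglutarate dehydrogenase complex.

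The study measured newly made RNA in zebrafish embryos by enriched SLAM-seq at 4 stages of the blastula, named 256c, 1024c, Oblong and Sphere. Embryos received s4UTP, a uridine nucleotide whose sulfur is built into new transcripts and allows them to be biotinylated and enriched on beads. Iodoacetamide (IAA) then modifies the sulfur. One genotype was wild type, and the other was mir430-/- injected with miR430, which lacks the very early transcribed microRNA cluster and is called the mutant below. Each genotype had 3 IAA libraries at each stage, which makes 24 libraries in 8 groups, all from whole embryos kept at 28 degrees. The injection of miR430 is named for the mutant only, so the deletion, the injected RNA and the background of the line cannot be told apart in any comparison of genotypes. The mutant libraries held between 0 and 59 counts of mir430 genes and the wild type IAA libraries between 8865 and 213074. In bulk embryos, fewer cells that express a gene and less RNA per cell cannot be told apart.

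The IAA libraries held between 4960211 and 13803137 counts, of which nuclear genes took 1.22% to 62.6%. Nuclear genes held between 160889 and 4118874 counts, and the 74 genes together between 356 and 3019. The wild type libraries at 256c were shallow for these genes, with counts for 51 to 55 of the 74, against 68 to 73 in wild type at Sphere. The mutant libraries at 256c were uneven, with counts for 48, 56 and 68 of the genes in replicates 1 to 3. Nuclear genes took 2.46%, 7.46% and 5.59% of the counts in these, against 2.56%, 1.22% and 2.67% in wild type at 256c. Nuclear genes took 12.9% of the counts in wild type Sphere replicate 1, against 40.1% and 62.6% in replicates 2 and 3, and results at that stage are also given without it. The filter on low counts kept 62 of the 74 genes, each with 96 to 1175 counts over the 24 libraries. The other 12, with 12 to 70 counts, were not tested: mrps2, mrps16, mrps18c, mrps24, mrps35, mrpl23, mrpl32, mrpl35, mrpl41, mrpl42, mrpl53 and mrpl58. The tested genes are therefore not all members, and the genes with the least signal are missing from every count below.

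Summed over all 74 genes, the share of nuclear counts was highest at 256c and lowest at Sphere in both genotypes. In wild type it was 0.250%, 0.323% and 0.217% at 256c in replicates 1 to 3, and 0.112%, 0.0733% and 0.0565% at Sphere. In the mutant it was 0.206%, 0.162% and 0.139% at 256c, and 0.0595%, 0.0558% and 0.0748% at Sphere. All 3 libraries at 256c were above all 3 at Sphere in each genotype. Between these stages the wild type mean was 0.130% ± 0.0387 at 1024c and 0.128% ± 0.0560 at Oblong, and the mutant mean 0.119% ± 0.0425 and 0.0948% ± 0.0148 (SD, n = 3). On this measure the genotypes overlapped at 1024c, Oblong and Sphere, and did not at 256c. The nuclear counts include those of mir430 genes, so the measure is not fully alike between the genotypes. In wild type at 256c these genes took 8865 of 204534, 10759 of 160889 and 23346 of 164092 nuclear counts, against 59, 1 and 1 counts in the mutant. The genes of the cytosolic ribosome went the other way on the same measure, from 0.166% ± 0.0239 to 0.382% ± 0.115 in wild type and from 0.183% ± 0.0999 to 0.489% ± 0.0619 in the mutant (SD, n = 3). A share can fall because other nuclear genes gained counts. As CPM, which are counts relative to library size, on a scale set by the majority of genes (TMM scaling), the 74 genes summed to 144 ± 22.8 in wild type at 256c and 102 ± 19.9 at Sphere, and to 134 ± 22.7 and 92.1 ± 6.15 in the mutant (SD, n = 3). Relative to all counts, mitochondrial ones included, the sum rose instead in both genotypes. In wild type the genes took 512 of 7995656, 519 of 13164445 and 356 of 6155531 counts at 256c. At Sphere they took 1030 of 7134266, 3019 of 10273049 and 2213 of 6256356. The direction of the sum thus depends on the scale.

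**Figure D1:**
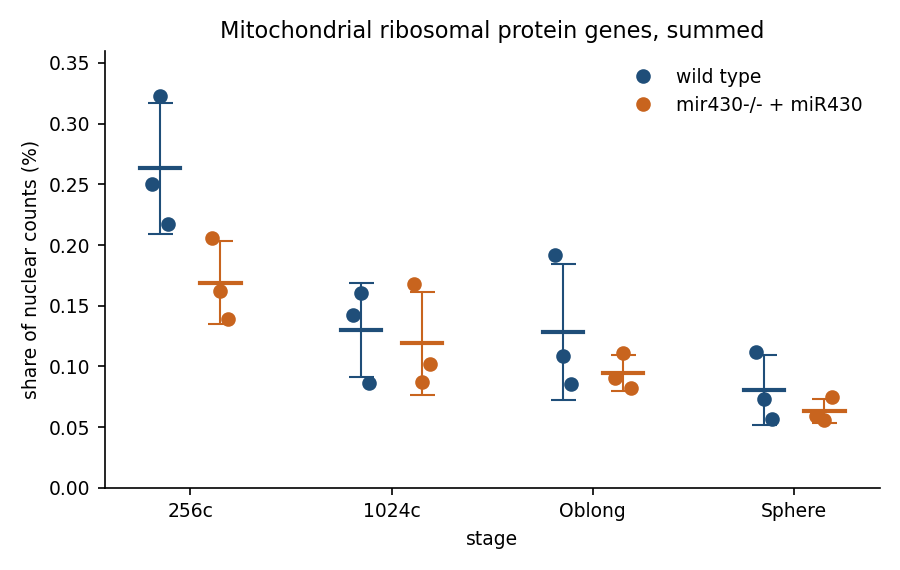
Share of nuclear counts, in percent, taken by the 74 mitochondrial ribosomal protein genes in each IAA library by stage. Points are libraries, bars are means of 3 and error bars are SD. In each genotype all 3 libraries at 256c lie above all 3 at Sphere, with 0.263% ± 0.0540 against 0.0806% ± 0.0285 in wild type.

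Levels differed widely among the genes. Averaged over the 24 libraries and divided by exonic length, they ran from 0.0994 to 6.27 CPM per kb, with a median of 0.981. On this scale mrps18a was the highest, at 6.27 CPM per kb. It was followed by mrps36 (5.14), mrps11 (5.10), mrps14 (4.32) and mrpl37 (3.23). The small subunit proteins MRPS11 and MRPS14 have bacterial counterparts in the head and platform of the subunit, and MRPL37 is a protein without one. The tested genes with the lowest levels per kb were mrps25 (0.124 CPM per kb), mrps15 (0.199) and mrps33 (0.285). The annotated exons of mrps25 and mrps15 span 6188 and 5598 bases, the former being the longest of the set, against a median of 1081.5, which lowers their value per kb. The 12 genes that were not tested had a median of 0.138 CPM per kb against 1.14 for those tested. Whether neighbours in this order differ beyond their spread was not tested. The SD over the mean of a tested gene within a group had a median of 0.709 in wild type at 256c and 0.474 in wild type at Sphere. Of the 62 tested genes, 25 had their highest group mean in wild type at 256c, 9 in the mutant at 256c, 9 in wild type at Sphere and 9 in the mutant at Sphere, and the other 10 lay between. This tally is on the TMM scale and was not made over all genes, so it may not be particular to this set. It was also not made with total counts, where 32 genes rose in wild type and 0 fell (64.9% and 0.102% of all genes). Wild type at 256c also had the fewest counts of these genes, with 6.25 per gene and library on average.

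**Figure D2:**
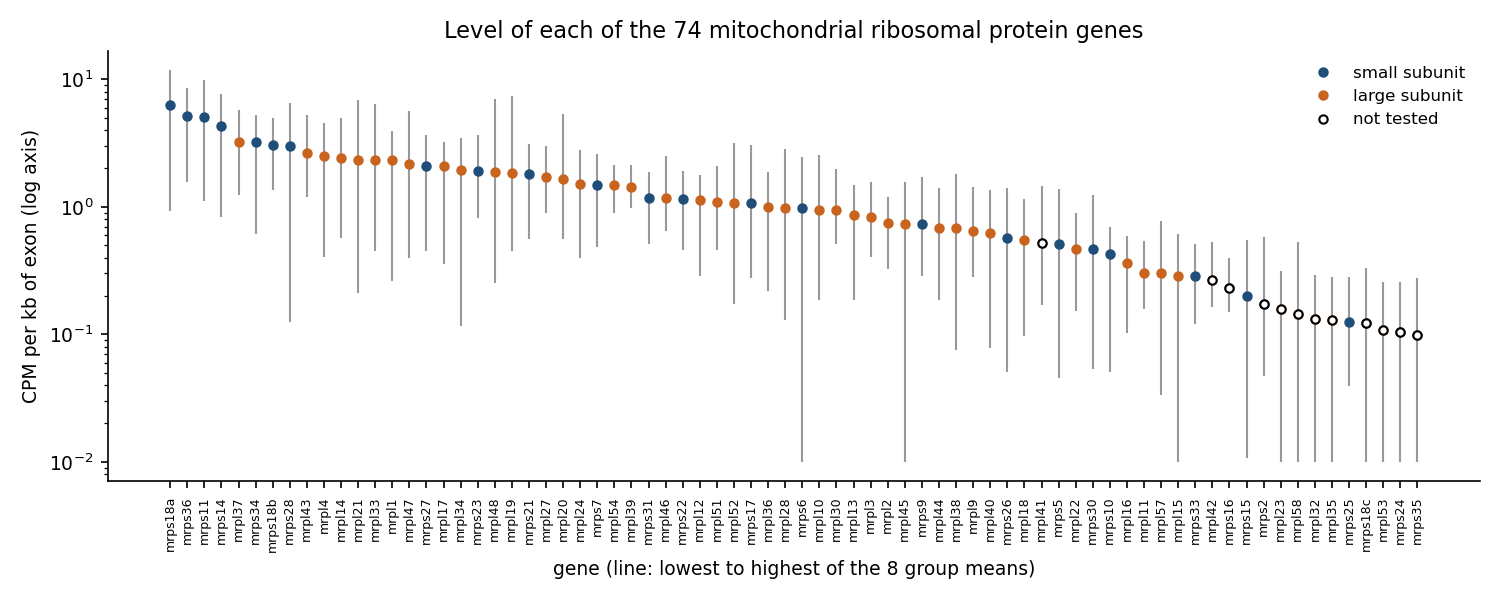
Mean level over 24 libraries, in TMM-scaled CPM per kb of exon on a log axis, for each of the 74 genes in falling order. Lines run from the lowest to the highest of the 8 group means and end at 0.01 where a group is at 0. Open circles are the 12 genes that were not tested, and mrps18a is highest at 6.27 CPM per kb.

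In wild type some genes of this ribosome rose and others fell between 256c and Sphere on the TMM scale, as did genes at large. Of 62 tested, 13 rose and 16 fell (edgeR quasi-likelihood test, adjusted p under 0.05), where 30.7% of all 14732 genes tested rose, 16.2% fell and 47% did either. Their median log2 fold change was -0.70 against 0.75 over all genes, and 23 of the 62 lay above the median of all genes. Of the 39 genes named for the large subunit 9 rose and 10 fell, and of the 23 named for the small subunit 4 rose and 6 fell. The latter 6 include mrps18a and mrps36, whose symbols may not give their place, as said above. With scaling to total counts, where mitochondrial RNA sets the scale and the median of all genes moves from 0.75 to 3.5, 32 genes rose and none fell, where 64.9% of all genes rose and 0.102% fell, and only 5 of the 16 kept a negative value: mrps14, mrpl14, mrpl24, mrpl33 and mrpl48. The falls below are thus falls relative to most nuclear genes.

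The genes that rose in wild type started at or near 0. mrps28 (chromosome 22, 26290209 to 26290863, GRCz11), which encodes a small subunit protein related to bacterial S1, had 0.244, 0 and 0 CPM at 256c and 2.86, 5.93 and 4.01 at Sphere. It passed through 1.02 ± 0.567 at 1024c and 2.51 ± 1.19 at Oblong (SD, n = 3), so the group mean was higher at each later stage. With 1 count against 271, the ratio was 44.4 with a 95% counting interval of 7.91 to 1762 (adjusted p = 0.000868, edgeR). mrpl45 (chromosome 11, 12096199 to 12104917) encodes a protein at the exit of the ribosome that faces the inner membrane. It had 0 counts in all 3 wild type libraries at 256c and 0.557, 1.61 and 1.78 CPM at Sphere, at least 4.70-fold higher against 3 counts over the 256c group (adjusted p = 0.00638, edgeR). The large subunit gene mrpl34 had 0, 0.327 and 0 CPM at 256c and 1.19, 4.92 and 3.64 at Sphere, a ratio of 35.6 (interval 6.32 to 1412). mrps5, whose bacterial counterpart lines the entry of the messenger RNA, had 0.244, 0 and 0 CPM and then 0.796, 2.38 and 2.14, a ratio of 19.0 (interval 3.35 to 758). In all 4 of these genes each Sphere library lay above each 256c library. Here and below, most genes were named for their calls or low p in the same libraries. Libraries that do not overlap thus describe these genes and add no separate support. The share of all genes without overlap was not computed. mrpl1 and mrpl28 also rose, by ratios of 12.9 (interval 4.36 to 63.0) and 13.0 (interval 3.55 to 109). The call on mrpl28 ended without wild type 256c replicate 2 (adjusted p = 0.0725, edgeR) or 3 (0.0653), or without wild type Sphere replicate 2 (0.106). Such intervals cover counting error only.

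The genes that fell in wild type started from higher levels, with a median of 5.07 CPM at 256c over the 16 against 0.238 over the 13 that rose. The starting level is part of the change, so this is a description. mrpl48 (chromosome 10, 36684000 to 36691681), a large subunit gene without a bacterial counterpart, had 2.93, 10.8 and 3.5 CPM at 256c and 0.796, 0.484 and 0.137 at Sphere. Its log2 fold change was -3.61 (standard error 0.80 and adjusted p = 0.00139 by edgeR), or -4.36 relative to the median of all genes. mrpl14 (chromosome 13, 42676202 to 42679041), whose protein forms a bridge to the small subunit, had 1.96, 2.29 and 5.05 CPM and then 0.557, 0.323 and 0.182, a log2 change of -3.11 (standard error 0.70 and adjusted p = 0.00163 by edgeR). mrpl33 and mrpl24 fell by 3.22 and 2.74 on the log2 scale. In these 4 genes no Sphere library reached any 256c library. mrpl47, near the exit of the ribosome, fell by 2.28 and mrps36 fell by 2.26, but their signs turned with total counts (0.39 and 0.29), and both calls ended without wild type Sphere replicate 3 (adjusted p = 0.0554 and 0.0696, edgeR).

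The counts of calls in wild type moved with single libraries, and so did those over all genes. The number of genes that rose was 6 without 256c replicate 2, 5 without Sphere replicate 2 and 7 without Sphere replicate 3. The number that fell was 9 without Sphere replicate 2 and 5 without Sphere replicate 3. Over all genes tested, the share that rose was 21.3%, 21.9% and 22.1% without these 3 libraries in turn, and the share that fell was 5.12% without Sphere replicate 2 and 2.47% without Sphere replicate 3. Without Sphere replicate 1, the library with the lowest nuclear share, 15 rose and 15 fell, where 32.4% of all genes rose and 22.6% fell.

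**Figure D3:**
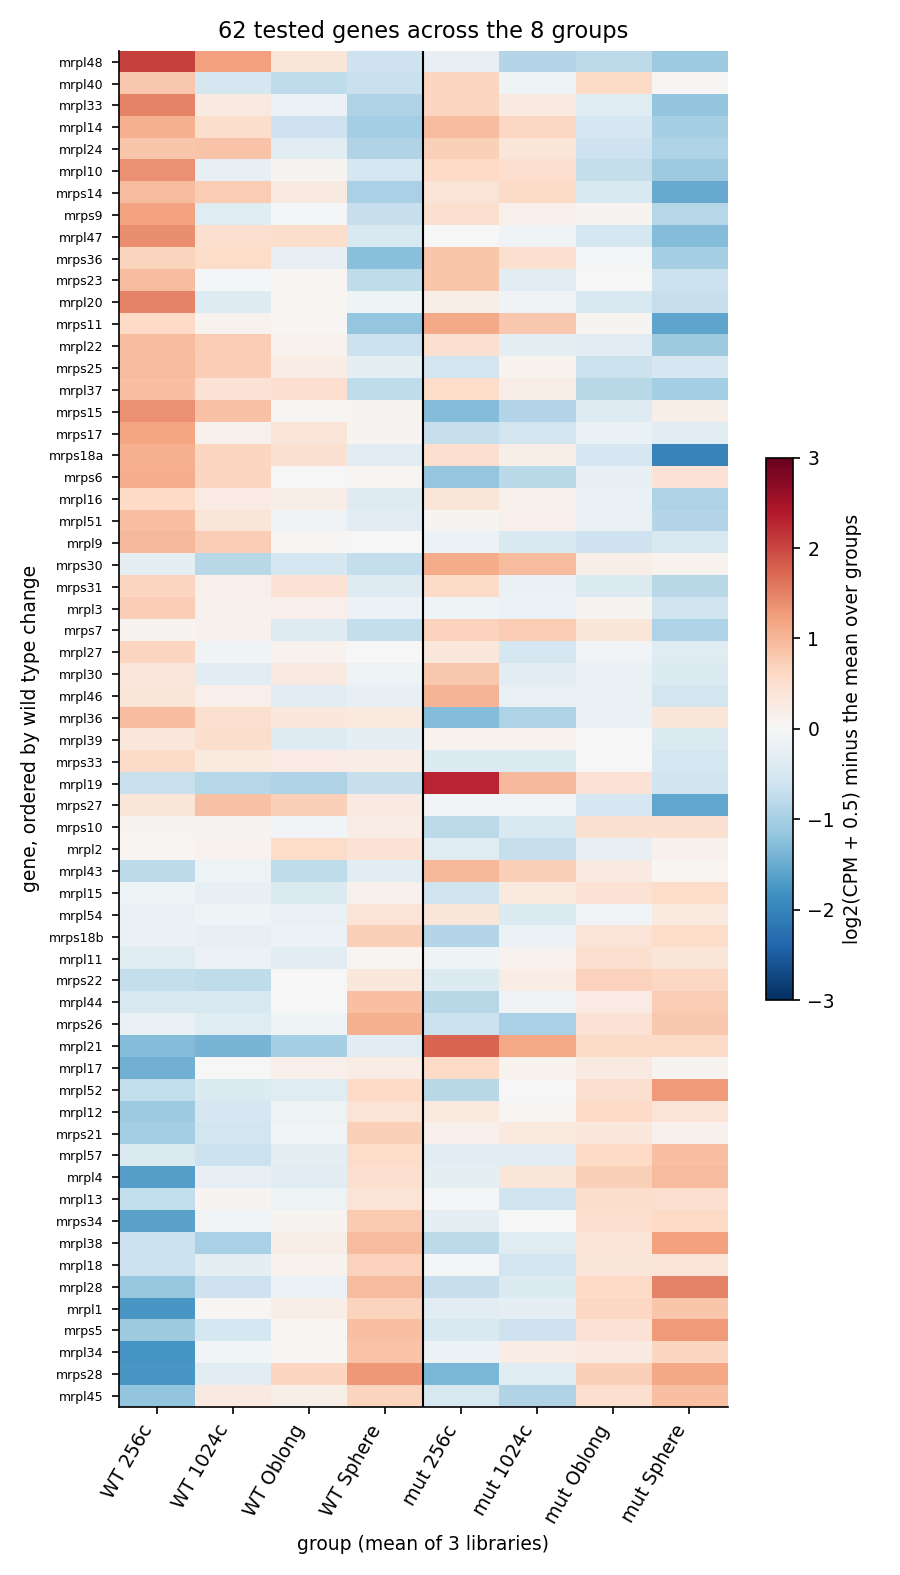
Group means of the 62 tested genes as log2(CPM + 0.5), each gene centred on its mean over the 8 groups and ordered by its change in wild type. Red is above and blue below a gene's own mean. The top rows turn from red at 256c to blue at Sphere and the bottom rows the reverse on this TMM scale (with total counts 11 of the 16 wild type falls turn positive), and mrpl19 is red in the mutant at 256c.

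The mutant course had a like split. From 256c to Sphere 13 genes rose and 19 fell of the 62 tested, where 26.8% of all genes rose, 22.4% fell and 49.2% did either. The median log2 fold change was -0.57 against 0.57 over all genes, and 25 of 62 lay above the latter. With total counts 29 rose and none fell, where 59.4% of all genes rose and 0.604% fell, the median of all genes was 2.85, and 11 of the 19 kept a negative value. The number that rose was 8 without mutant 256c replicate 2, where 14.2% of all genes rose.

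Wild type and mutant share no library in these comparisons. The genes that rose in both were mrps5, mrps28, mrpl28, mrpl38, mrpl44 and mrpl45, 6 genes, or 46.2% of those that rose in each genotype. Of all genes that rose, 60.8% of those in wild type and 69.8% of those in the mutant rose in both. The genes that fell in both numbered 12, or 75.0% of those in wild type and 63.2% of those in the mutant: mrps9, mrps11, mrps14, mrps18a, mrps36, mrpl10, mrpl14, mrpl22, mrpl24, mrpl33, mrpl37 and mrpl47. Of all genes that fell, these shares were 76.1% and 55.0%. No gene rose in one genotype and fell in the other. The fold change had the same sign in 52 of 62 genes, or 83.9%, against 85.6% of all genes tested. Pearson's r across the genes was 0.60 against 0.75 over all genes, which describes genes that share libraries and are not independent replicates.

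mrps28 had 0, 0.380 and 0.363 CPM in the mutant at 256c and 5.33, 4.27 and 1.92 at Sphere, a log2 change of 3.77 (standard error 0.84 and adjusted p = 0.00182 by edgeR). mrpl38, a large subunit protein without a bacterial counterpart, had 0.232, 0.127 and 0.181 CPM and then 2.19, 2.63 and 1.92, a ratio of 13.2 (interval 4.43 to 64.8). mrpl44, whose protein has the fold of an RNase III, had 0, 0.253 and 0.544 CPM and then 2.13, 1.41 and 1.88 (log2 fold change 2.65, adjusted p = 0.00851, edgeR). Each of these 3 genes was higher in every Sphere library than in any 256c library of the mutant.

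The falls with the lowest adjusted p in the mutant were those of mrps18a and mrps11. Both kept their sign with total counts, but both calls ended there (adjusted p = 0.435 for mrps18a, edgeR). mrps18a (chromosome 4, 5642696 to 5645166) had 7.19, 6.72 and 8.88 CPM at 256c and 0.898, 0.986 and 0.877 at Sphere, a log2 change of -3.03 (standard error 0.53 and adjusted p = 0.000572 by edgeR). mrps11 had 9.28, 13.7 and 7.61 CPM and then 1.80, 0.657 and 0.961, a log2 change of -3.16 (standard error 0.64 and adjusted p = 0.00111 by edgeR). In both genes the 2 stages were clearly apart. mrpl19, mrpl14, mrpl33 and mrpl24 also fell, by 3.48, 2.91, 2.82 and 2.57 on the log2 scale.

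Among the genes that rose in the mutant but were not called in wild type were mrps6, mrps15, mrpl36 and mrpl52. mrps6 had 0 counts in the mutant at 256c and 1.12, 1.60 and 0.292 CPM at Sphere, at least 5.71-fold higher. mrps15 had 1 count at 256c and 1.01, 1.08 and 1.09 CPM at Sphere, a ratio of 18.8 (interval 3.27 to 754). mrpl36 had a log2 change of 2.45 (standard error 0.63 and adjusted p = 0.00360 by edgeR), and mrpl52, without a bacterial counterpart, a ratio of 20.7 (interval 5.62 to 172). In wild type the log2 fold change was -1.47 for mrps6, -1.63 for mrps15 and -0.74 for mrpl36, and none of these passed the test. mrpl52 went the same way in wild type as in the mutant, with 0.489, 0 and 0 CPM at 256c and 1.19, 0.888 and 1.41 at Sphere, a ratio of 5.58 (interval 1.49 to 47.0) that missed the threshold (adjusted p = 0.0940, edgeR).

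**Figure D4:**
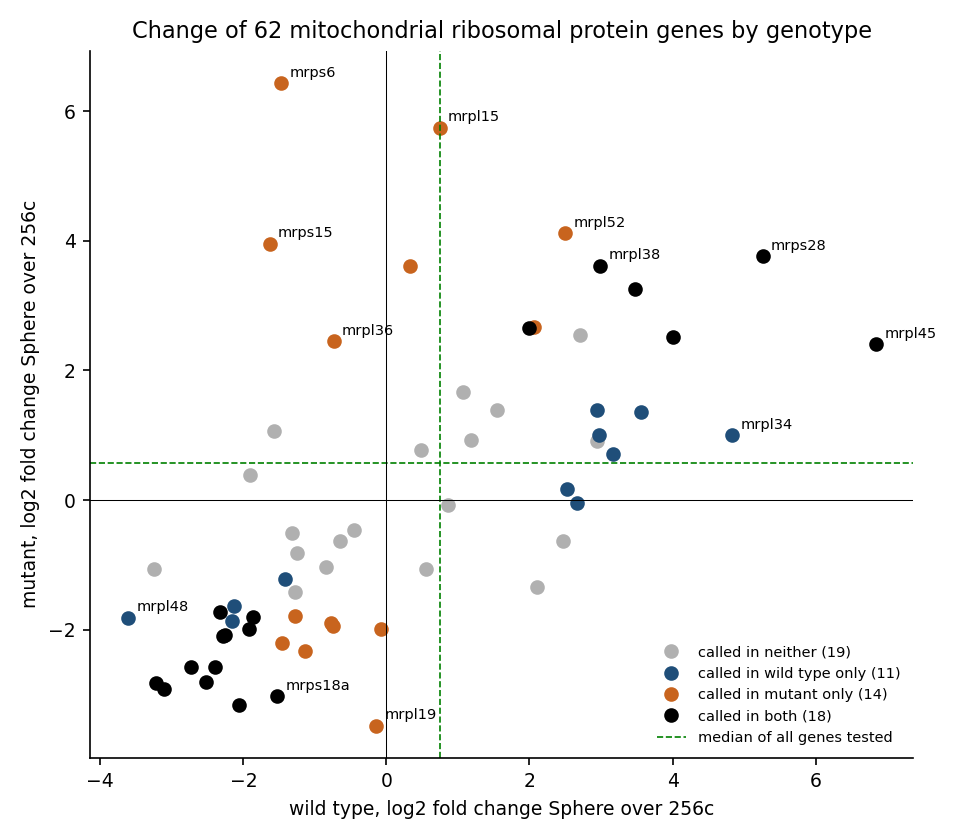
Log2 fold change from 256c to Sphere (TMM scale) in wild type, on the x axis, and in the mutant, on the y axis, for the 62 tested genes. Dashed lines are the medians of all genes tested, 0.75 and 0.57. The 18 genes called in both genotypes lie in the lower left and upper right, while mrps6, mrps15 and mrpl36 lie in the upper left. With total counts 11 of the 16 wild type falls and 8 of the 19 mutant falls turn positive.

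The difference between the courses was tested as an interaction in the same model. None of the 62 genes passed by edgeR, with an unadjusted p under 0.05 for 10 of them against 13.7% of all genes, where 0.0136% of all genes passed. DESeq2 called 1 of the 62 higher, where it called 0.808% of all genes higher and 2.67% lower. The lowest adjusted p among these genes was that of mrps15, whose course differed by 5.59 on the log2 scale (standard error 1.27 and adjusted p = 0.0686 by edgeR), and mrps6 followed (adjusted p = 0.0755, edgeR), for which no difference in fold is given because the mutant had 0 counts at 256c. Both missed the threshold. mrps15 passed with no filter on low counts (adjusted p = 0.0245) and with the replicate block (0.0336), and mrps6 passed with no filter (0.0134) and with total counts (0.0272). The shares of all genes that passed were higher under these settings too, at 0.112% higher and 2.19% lower with no filter, 0.190% and 0.611% with the block, and 0.102% and 3.01% with total counts.

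At 256c, 6 of the 62 genes differed between the genotypes: 2 were higher in the mutant and 4 lower, where 6.61% of all genes were higher, 2.87% lower and 9.48% either. All other tested genes missed the threshold. The median log2 fold change was -0.23 against 0.25 over all genes. An unadjusted p under 0.05 was found for 16 of 62 genes against 23.3% of all genes.

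Both genes that were higher encode large subunit proteins with bacterial counterparts. mrpl21 (chromosome 7, 72577898 to 72585111) had 8.35, 3.42 and 4.35 CPM in the mutant and 0.244, 0 and 0.389 in wild type. With 87 counts against 2, the ratio was 23.9 (interval 6.42 to 200.3, adjusted p = 0.00468, edgeR). mrpl19 (chromosome 20, 25440514 to 25445246) had 9.51, 8.11 and 10.3 CPM in the mutant and 1.96, 0.327 and 0 in wild type, a log2 change of 3.44 (standard error 0.88 and adjusted p = 0.0144 by edgeR). In both genes every mutant library lay above every wild type library. The call on mrpl19 ended without wild type 256c replicate 2 (adjusted p = 0.0788) or 3 (0.0704), which left 1 gene higher in the first case, while 4 were higher without mutant 256c replicate 1. Over all genes, 2.44% were higher without wild type 256c replicate 2 and 7.35% without mutant 256c replicate 1.

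The 4 genes that were lower were mrps6, mrps15, mrpl36 and mrpl48. The comparison at 256c shares its libraries with the courses and with the difference between them. The mutant rises of mrps6, mrps15 and mrpl36 are thus not separate from their differences at 256c. The same holds for the mutant fall of mrpl19 and the wild type fall of mrpl48. mrps15 (chromosome 16, 36095582 to 36118514), whose protein binds the small ribosomal RNA early in assembly, had 0, 0 and 0.181 CPM in the mutant and 1.71, 3.59 and 3.89 in wild type. With 28 counts in wild type against 1, this gave a ratio of 51.0 (interval 8.43 to 2085, adjusted p = 0.00214, edgeR). mrps6 (chromosome 13, 4995433 to 5000739), a partner of MRPS18 proteins in the small subunit, had 0 counts in the mutant and 2.20, 1.96 and 1.55 CPM in wild type, at least 11.5-fold lower (adjusted p = 0.00605, edgeR). mrpl36 (chromosome 19, 28284120 to 28290213), a very small protein of the large subunit, had 0.464, 0.253 and 0.725 CPM against 4.40, 5.23 and 2.72 in wild type, a log2 change of -3.11 (standard error 0.65 and adjusted p = 0.00361 by edgeR). mrpl48 had 0.464, 0.380 and 1.45 CPM against 2.93, 10.8 and 3.5, a log2 change of -2.90 (standard error 0.81 and adjusted p = 0.0239 by edgeR). In all 4 genes every mutant library lay below every wild type library, which describes genes picked by their calls in these libraries. The call on mrpl48 ended with total counts (adjusted p = 0.132) and without wild type 256c replicate 2 (0.196) or mutant 256c replicate 1 (0.0732) or 2 (0.108). The exons of mrps15 share 2225 bases on the same strand with another annotated gene, CU499336.2, so the split of reads between them is uncertain.

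At 1024c 1 gene was higher in the mutant and 2 were lower, where 1.83% of all genes were higher, 1.57% lower and 3.39% either. mrpl21 was the higher one, with 5.24, 1.58 and 3.34 CPM against 0.138, 0.141 and 0.219, a ratio of 22.4 (interval 7.33 to 111, adjusted p = 0.00716, edgeR). The groups did not overlap. The lower ones were mrpl48, with a log2 change of -3.21 (standard error 0.88 and adjusted p = 0.0395 by edgeR), and mrps15, with -2.91 (standard error 0.83 and adjusted p = 0.0490 by edgeR). The call on mrpl21 ended without wild type 1024c replicate 1 or 2 (adjusted p = 0.0600 and 0.0586), which left 0 genes higher. Over all genes, 0.541% and 0.637% were higher without these libraries in turn. Leaving out any single library of that stage left 0 genes lower, except that leaving out wild type 1024c replicate 1 left 1. In these fits 0.687% to 1.03% of all genes were lower. With only the 1024c libraries fitted, the filter kept 30 of the 74 genes, without mrpl21 and mrps15, and none of the 30 passed (adjusted p = 0.0542 for mrpl48). mrpl36 had 0.599, 0.591 and 1.11 CPM against 2.34, 1.97 and 4.38 (adjusted p = 0.0784), and mrpl19 had 4.94, 3.35 and 2.09 against 0.551, 0.843 and 0.438 (adjusted p = 0.113).

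At Oblong no gene passed by edgeR, with an unadjusted p under 0.05 for 9 of 62 against 13.6% of all genes. Of all genes, 0.774% were higher, 0.923% lower and 1.7% either at this stage. DESeq2 called 1 gene higher, mrpl21, and 1 lower, mrpl37, where it called 2.2% of all genes higher and 1.81% lower. These had the lowest unadjusted p by edgeR as well, but missed the threshold. mrpl21 had 2.40, 2.74 and 1.19 CPM against 0, 0.902 and 0.263 (log2 fold change 2.33, SE 0.76, adjusted p = 0.127, edgeR), and mrpl37 had 2.31, 2.74 and 1.56 against 9.20, 5.08 and 4.74 (log2 fold change -1.52, SE 0.54, adjusted p = 0.177). In both genes the libraries of the genotypes did not overlap.

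At Sphere 1 gene was lower in the mutant and none was higher, where 0.706% of all genes were lower, 0.394% higher and 1.1% either. mrps18a had 0.898, 0.986 and 0.877 CPM in the mutant and 4.93, 3.71 and 3.42 in wild type, a log2 change of -2.11 (standard error 0.51 and adjusted p = 0.0375 by edgeR). The mutant group was the lower one by mean at each stage for this gene, with 7.60 ± 1.14 against 11.6 ± 2.70 CPM at 256c, 5.99 ± 2.88 against 8.51 ± 2.41 at 1024c and 3.52 ± 1.69 against 7.31 ± 0.812 at Oblong (SD, n = 3). These earlier differences did not pass. The call at Sphere ended with total counts (adjusted p = 0.548), with no filter (0.116), with only the Sphere libraries (0.184) and with the replicate block (0.0833). It also ended without wild type Sphere replicate 1 (0.0877) or 2 (0.0736) or mutant Sphere replicate 1, 2 or 3 (0.180, 0.210 and 0.157). mrps27, a small subunit protein with RNA-binding repeats, had 1.23, 0.610 and 0.543 CPM against 4.06, 3.27 and 4.92 (log2 fold change -2.35, SE 0.61, adjusted p = 0.0533, edgeR) and just missed. DESeq2 called both genes lower, where it called 1.19% of all genes lower. Of the 6 genes that differed at 256c, none passed at Sphere. mrps15 had 1.06 ± 0.0421 CPM in mutant embryos against 0.957 ± 0.348 in wild type, mrpl36 had 2.61 ± 0.644 against 2.48 ± 0.432, and mrpl19 had 0.829 ± 0.373 against 0.749 ± 0.418 (SD, n = 3). mrps6 had 1.00 ± 0.660 against 0.674 ± 0.360 CPM and mrpl48 had 0.207 ± 0.107 against 0.472 ± 0.330 (SD, n = 3). mrpl21 had 2.13, 2.58 and 1.59 against 0.398, 1.49 and 0.820 CPM, so every mutant library was still the higher (log2 fold change 1.18, adjusted p = 0.602, edgeR). The interval of each difference is wide, with an SE of 0.66 for mrps15, 0.52 for mrpl36 and 0.76 for mrpl19 on the log2 scale.

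**Figure D5:**
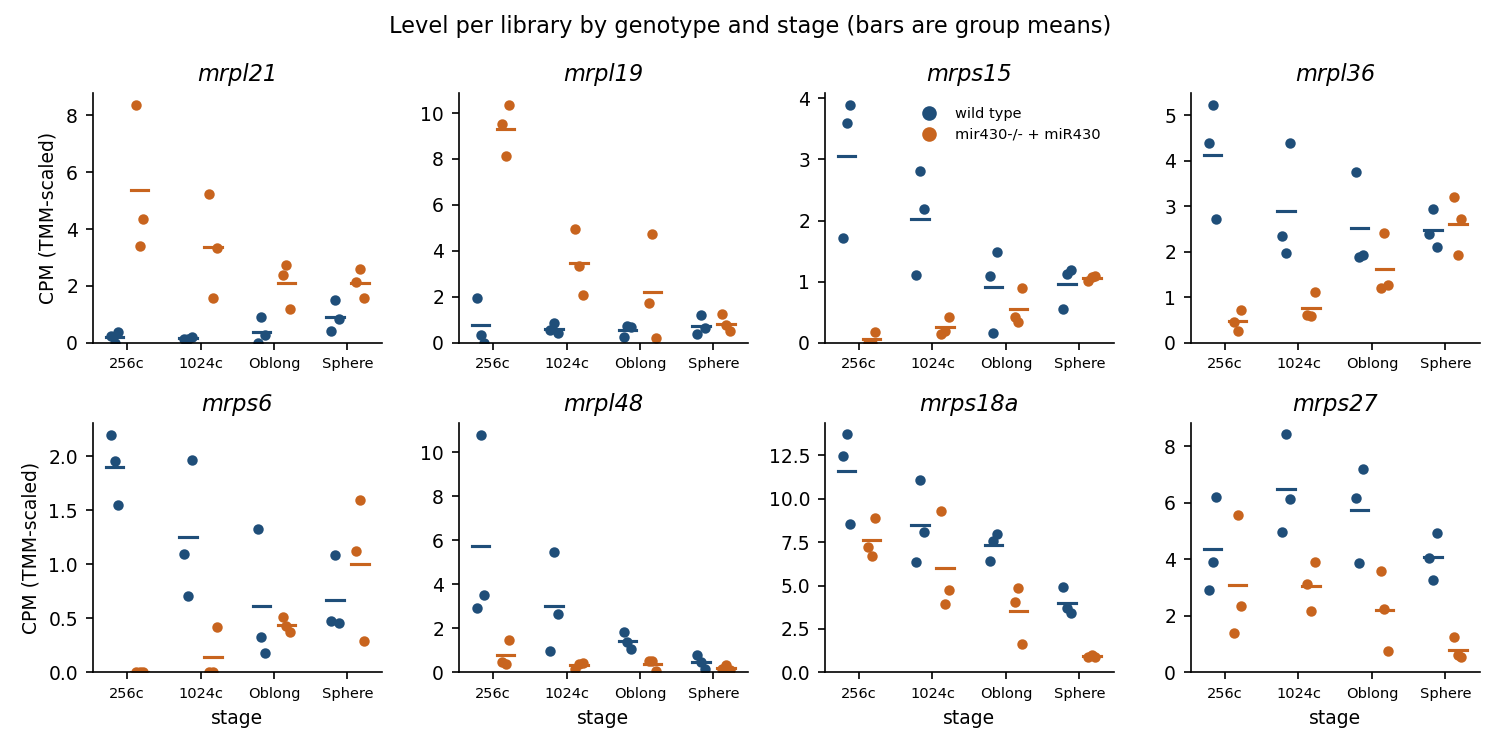
Level in TMM-scaled CPM of 8 genes in each IAA library by stage. Points are libraries and bars are means of 3. mrpl21 and mrpl19 start higher in the mutant and mrps15, mrpl36, mrps6 and mrpl48 lower, while mrps18a and mrps27 are apart at Sphere, where mrps18a has 0.920 ± 0.0575 against 4.02 ± 0.804 CPM.

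The authors' deposited table of genotype comparisons marked the same 6 genes at 256c, with mrpl19 and mrpl21 marked as up and mrps6, mrps15, mrpl36 and mrpl48 as down. In the authors' deposited table the log2 fold change at 256c was 3.56 for mrpl21, 2.99 for mrpl19, -4.03 for mrps6 and -3.93 for mrps15. At 1024c the authors' deposited table marked mrpl21 only, and at Oblong and Sphere none, although its adjusted p at Sphere was 6.17e-05 for mrps18a and 0.00380 for mrps27. Every gene marked in the authors' deposited table had an adjusted p under 0.01 and an absolute log2 fold change over 2, and no unmarked gene had both. The authors' deposited table gave an adjusted p for 61, 63, 63 and 65 of the 74 genes at the 4 stages in turn. By an adjusted p under 0.05 in the authors' deposited table, 3 of these genes were higher and 5 lower at 256c, 1 and 3 at 1024c, 1 and 1 at Oblong, and 0 and 2 at Sphere. Over all genes, the authors' deposited table marked 1000, 369, 197 and 125 at these stages. A further 974, 512, 359 and 162 unmarked genes had an adjusted p under 0.05 there. The shares over all genes were not computed for that table.

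Genes of embryonic layers also differed between the genotypes at 256c. Of 8 enveloping layer genes, which mark the outer epithelium, 6 were higher in the mutant and none lower. Over all genes tested, 6.61% were higher and 2.87% lower at this stage. The enveloping layer genes summed to between 168 and 2508 CPM in the mutant libraries and between 89.4 and 329 in the wild type ones, with krt4, krt5, krt18a.1 and cldne at 0 in wild type. Of 6 tested yolk syncytial layer genes 2 were higher, and the 8 listed genes summed to between 120 and 806 CPM against between 23.5 and 84.7, with ttr, apoa1b and slc26a1 at 0 in both genotypes. The blastula genes nanog, pou5f3, sox19b, eomesa, h1m, buc and dazl had counts in every group and none differed between the genotypes. The part of these genes in the differences above was not tested.

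Several genes with a known role in the ribosome were followed whether they moved or not. mrps22 and mrps34, in which human mutations cause mitochondrial disease, did not differ between the genotypes. mrps34 had 1.22, 0.653 and 0 CPM in wild type at 256c and 1.11, 7.67 and 7.33 at Sphere, so the groups overlapped although it was called (log2 fold change 2.97, SE 1.03, adjusted p = 0.0224, edgeR). mrps22 had 0.640 ± 0.145 and 1.86 ± 0.136 CPM at the same stages (SD, n = 3; adjusted p = 0.111). mrpl12, the stalk protein that contacts the translation factors, in wild type had 0, 0.327 and 0.777 CPM at 256c and 2.47, 1.29 and 2.05 at Sphere, a ratio of 5.90 (interval 1.97 to 29.1, adjusted p = 0.0435, edgeR). In the mutant it had 1.76 ± 0.830 and 1.96 ± 1.56 CPM (SD, n = 3; adjusted p = 0.856). mrpl10, which anchors the stalk, had 1.22, 3.59 and 6.61 CPM and then 0.955, 0.767 and 0.228 in wild type, a log2 change of -2.52 (standard error 0.74 and adjusted p = 0.00951 by edgeR), and the sign turned with total counts (0.08). mrpl12 and mrpl10 thus moved in opposite directions in wild type on the TMM scale, which describes these genes and not the stalk as a whole. mrps7, in the head of the small subunit, and mrpl16, close to the catalytic centre, fell in the mutant (log2 fold change -2.33 and -2.20, adjusted p = 0.00958 and 0.00948, edgeR). Their wild type values of -1.13 and -1.46 did not pass. mrpl3 did not pass in any comparison. mrpl58, a peptidyl-tRNA hydrolase built into the large subunit, was not tested. It had 0 counts in both genotypes at 256c and 0.344 ± 0.192 CPM in wild type and 0.229 ± 0.0899 in the mutant at Sphere (SD, n = 3). mrps12, the decoding-site protein, was not analysed here.

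Other genes of mitochondrial translation both rose and fell over the course, as did genes at large. Of all genes tested, 30.7% rose and 16.2% fell in wild type, and 26.8% rose and 22.4% fell in the mutant. They are given on the TMM scale, and total counts were not run for them. Of 3 tested ribosomal proteins with other symbols, aurkaip1 rose and dap3, a GTP-binding small subunit protein, fell in both genotypes. aurkaip1 had 0.510 ± 0.134 CPM in wild type at 256c and 6.75 ± 4.52 at Sphere (log2 fold change 3.69, adjusted p = 0.00434, edgeR). dap3 had 7.70 ± 2.98 CPM in the mutant at 256c and 0.972 ± 0.571 at Sphere (log2 fold change -2.98, adjusted p = 0.00636). Of 10 translation factors, 1 rose and 5 fell in wild type and 1 rose and 6 fell in the mutant. mtif2, the initiation factor, fell by 2.07 in wild type and by 3.17 in the mutant on the log2 scale, while the factor genes that rose were mtif3 in wild type and gfm2 in the mutant. Of 14 tRNA synthetase genes, 1 rose and 6 fell in wild type and 0 rose and 5 fell in the mutant, vars2 among them in both. Of 14 ribosome assembly genes, 1 rose and 4 fell in each genotype, with eral1, a chaperone of the small ribosomal RNA, the one that rose.

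Of 10 genes of mitochondrial transcription and RNA, 2 rose in each genotype, polg2 and twnk of DNA replication, and 2 fell in wild type and 3 in the mutant, with lrpprc and slirp, which stabilise mitochondrial messenger RNAs, falling in both. Among 11 regulators of mitochondrial genes, 5 rose and 2 fell in wild type and 4 rose and 3 fell in the mutant. The shares over all genes are again 30.7% and 16.2% in wild type, and 26.8% and 22.4% in the mutant. gabpa, a factor known to act at promoters of nuclear genes for mitochondrial proteins in mammals, had 0.836 ± 0.562 CPM in wild type at 256c and 28.5 ± 13.3 at Sphere (SD, n = 3; adjusted p = 0.000201, edgeR). All 13 mitochondrially encoded protein genes fell in both genotypes, with a median log2 fold change of -3.83 in wild type and -3.41 in the mutant. Of 73 tested cytosolic ribosomal protein genes, 62 rose and 2 fell in wild type and 55 rose and 1 fell in the mutant, with medians of 3.24 and 2.75 against -0.70 and -0.57 for the mitochondrial set. No test of the difference between the sets was made.

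Between the genotypes, few genes of these lists passed. dhx30, an RNA helicase of mitochondrial ribosome assembly, was lower in the mutant at all 4 stages, with 1.08 ± 0.958 against 10.6 ± 2.37 CPM at 256c and 0.197 ± 0.102 against 2.21 ± 1.81 at Sphere (SD, n = 3; adjusted p = 0.00882 and 0.0237, edgeR). mrm2, a methyltransferase of the large ribosomal RNA, was lower at 1024c (log2 fold change -2.81, adjusted p = 0.0357). Of the tRNA synthetases, hars was higher and yars2 lower at 256c, and fars2 was lower at Oblong, with 3 counts against 60. mych, a Myc gene of the regulator list, was higher at 256c (log2 fold change 5.42, adjusted p = 0.00401). Of the cytosolic set, rps27.2 was higher at 256c and 1024c. None of the mitochondrially encoded genes, the translation factors, the genes of mitochondrial transcription and RNA or the ribosomal proteins with other symbols passed at any stage by edgeR; DESeq2 was not tabulated for these lists.

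Exons of 12 of the 74 genes overlap exons of another annotated gene, 11 of them on the opposite strand and mrps15 on the same strand. The deposited count table is titled as holding reads in proper orientation, without a statement of how this was set, and whether reads of such pairs were exchanged was not tested. The longest overlap on the opposite strand is that of mrps25 with rbsn, over 946 bases. mrpl43 and twnk share 287 bases, and mrpl43 was not called in any comparison while twnk rose over the course in both genotypes. Of the other genes that were called, mrpl16, mrpl22, mrpl33 and mrpl38 share 46, 54, 27 and 86 bases with a gene on the opposite strand, and mrpl4 shares 192. The 74 genes lie on 22 chromosomes, with at most 7 on one.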

How the data were processed

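Per the file headers, the authors deposited raw read counts, one whole number for each gene and library; the headings call them filtered without saying how. The submitters' processing notes name GRCz11 as the build, and featureCounts, HISAT, Trimmomatic, Picard, SAMtools and DESeq2 as tools. The authors' deposited comparison table holds log2 fold changes and p-values, used only where named. Its mean normalized signal per gene was deposited too and not used.

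The 74 genes were chosen by symbol. They and the gene lists were chosen with earlier results of these data known. One model of 8 group means over 24 libraries was fitted to the counts of all genes with edgeR 4.0.16 (limma 3.58.1, R 4.3.3), using TMM scaling, filterByExpr and the quasi-likelihood test. P-values were adjusted by Benjamini-Hochberg over 14732 genes and called under 0.05. The SE comes from the quasi-F statistic. Against a group with 0 counts a fold is a lower bound from 3 counts over the group, and with 1 to 3 counts the ratio has a 95% exact interval. Genes named with values were, per comparison, those called with the 6 lowest adjusted p in each direction, the 2 with the lowest p where under 3 were called, the 5 highest and 3 lowest levels per kb, a role list, and at most 4 called genes per other list and direction. Other genes named, such as mrpl43, come from shared calls, overlaps or another comparison. Alternatives were total-count scaling, scaling without mitochondrial and mir430 genes, no filter, only the groups compared, a replicate block, DESeq2 1.42.0 and leaving out each library.

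No 2 replicates were alike within sampling noise (chi-square over its degrees of freedom from 11.0 to 272 in 24 pairs). They are biological per the labels, which do not mention clutches, so a p-value here reflects only how far these libraries spread. Same-numbered libraries of the 2 genotypes deviated together weakly in all 3 pairs at Oblong (correlations of 0.112 to 0.198), and at the other stages at least 1 pair did not. The highest values were those of same-numbered pairs, 0.612 for replicate 2 at Sphere and 0.400 for replicate 1 at 1024c. Other same-numbered pairs were negative, down to -0.105 for replicate 2 at 1024c. A pair of unlike numbers reached 0.368 at Sphere. These values do not establish a pairing, and the labels do not state one. The procedure was also run on data simulated from the fitted model itself with planted changes. Such data share the model's assumptions and cannot test them, and no result above rests on that run. Libraries without IAA entered no test. No sequence is given.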

Additional observations from a re-analysis of the deposited data

Results flagged for a closer look

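The 4 wild type libraries without IAA, 1 per stage, entered no comparison, and the mitochondrial ribosomal protein genes had counts in each. They took 0.325% of nuclear counts at 256c (338 counts, 95% Wilson interval 0.292 to 0.361), 0.284% at 1024c (418 counts, interval 0.258 to 0.313), 0.148% at Oblong (194 counts, interval 0.128 to 0.170) and 0.0943% at Sphere (601 counts, interval 0.0870 to 0.102). The intervals cover counting error only. The IAA libraries of wild type ranged from 0.217% to 0.323% at 256c and from 0.0565% to 0.112% at Sphere, so both values without IAA lay near or within that range, while the value at 1024c was above the IAA range of 0.0862% to 0.160%. The libraries without IAA held between 143490 and 1105928 counts, fewer than any IAA library, which held at least 4960211. They were not tested against the others, so how far the signal of these genes depends on IAA is not known.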

How the results depend on the processing

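Scaling without mitochondrial and mir430 genes left every count and median within the limits used here. With total counts, 5 genes were higher at 256c (median 0.44), 2 higher and 0 lower at 1024c, 0 lower at Sphere, 32 higher and 0 lower in the wild type course (median 2.04), 29 and 0 in the mutant course (median 1.70), and 1 higher for the difference of courses. mrpl47 and mrps36 turned to 0.39 and 0.29 in wild type. These follow from the scale, which moves the median of all genes. Over all genes with total counts, 12.9% were higher at 256c, 1.47% higher and 1.32% lower at 1024c, and 0.570% lower at Sphere. The shares for the courses and their difference are given above. With no filter, 5 were higher at 256c, 2 higher and 1 lower at 1024c, 0 lower at Sphere, 9 lower in wild type (median 0.17), the mutant median was -0.30 and 2 were higher for the difference. Over all genes with no filter, 5.73% were higher at 256c, and 1.93% higher and 1.07% lower at 1024c. At Sphere 0.967% were lower, and in the wild type course 4.18% were lower. With only the groups compared, which gives fewer libraries and fewer genes past the filter (23 of the 74 at 256c, 30 at 1024c, 50 at Sphere, 38 in the wild type course, 45 in the mutant course and 59 for the difference), 2 were lower at 256c, where mrps6 and mrps15 were not tested and mrpl36 and mrpl48 stayed called (adjusted p = 0.0173 and 0.0441, edgeR), 0 higher and 0 lower at 1024c, 0 lower at Sphere, 8 higher and 10 lower in wild type, and the medians were -0.24 in the mutant and -0.44 for the difference. Over all genes with only the groups compared, 4.48% were lower at 256c, and 1.28% higher and 1.503% lower at 1024c. At Sphere 0.344% were lower, and in the wild type course 32.9% were higher and 9.83% lower. With the replicate block, 1 was lower at 1024c, 0 at Sphere and 1 was higher for the difference, and no gene was called at Oblong. Over all genes with the block, 1.30% were lower at 1024c and 0.658% at Sphere, and 0.971% higher and 1.10% lower at Oblong. With DESeq2, 1 was higher and 1 lower at Oblong, 2 lower at Sphere, 1 higher for the difference, and the medians were -0.14 in wild type and 0.071 in the mutant. The shares over all genes beside these DESeq2 counts are given above. Where no construction is named, the cause was not tested.

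Leaving out 1 library at a time gave 1 to 4 higher, 3 to 5 lower and a median of -0.37 to 0.03 at 256c. At 1024c it gave 0 to 1 higher, 0 to 1 lower and -0.43 to 0.10. At Oblong it gave 0 and 0 by edgeR (9 with an unadjusted p under 0.05 in all libraries) and 0.02 to 0.24, and at Sphere 0 higher, 0 to 1 lower and -0.32 to -0.01. In the wild type course it gave 5 to 15 higher, 5 to 15 lower and -0.68 to -0.016, in the mutant course 8 to 18 higher, 14 to 18 lower and -0.59 to -0.017, and for the difference 0, 0 and -0.50 to 0.13. Over all genes in these fits, 1.95% to 7.35% were higher and 1.45% to 1.93% lower at 256c. At 1024c 0.541% to 1.499% were higher and 0.687% to 1.03% lower. At Oblong 0.147% to 0.469% were higher and 0.350% to 0.630% lower, and at Sphere 0.168% to 0.305% and 0.322% to 1.37%. In the wild type course 19.2% to 32.4% rose and 2.47% to 22.6% fell. In the mutant course 14.2% to 27.1% rose and 15.3% to 20.6% fell. For the difference at most 0.154% were higher and 1.21% lower. Single genes were tallied only where named for their call or low p in a comparison. Under the other settings, 193 of these values kept their side of the threshold, 21 lost it, 7 gained it and 2 turned. With single libraries left out, 218 kept it and 28 lost it. Among all called genes more signs turned with total counts, for 11 of the 16 wild type falls and 8 of the 19 mutant falls. The 74 genes had 15.2 counts per gene and library on average, from 6.25 in wild type at 256c to 28.2 in wild type at Sphere, and the differences detectable at these depths were not computed.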

Other observations

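The tested genes nearest to those that differed between the genotypes were also read. For the 7 genes called at any stage, the 2 nearest tested genes on each side gave 28 neighbours. At 256c 4 of these 28 were called (epha7, tollip, irx1b and ucp2, named after their values were seen), or 14.3%, where 9.48% of all genes were called in either direction. None was called at 1024c, Oblong or Sphere by edgeR. The nearest tested gene before mrpl19, epha7, had a fitted log2 fold change of 8.30 at 256c (adjusted p = 0.0111, edgeR), while pfas, the nearest after it, had -0.59 (adjusted p = 0.720). Nearest tested does not mean adjacent, since epha7 ends at 24963092 on chromosome 20 and mrpl19 starts at 25440514. Like mrpl21, its neighbour tollip was higher in the mutant (log2 fold change 2.42). In contrast, irx1b and ucp2 were higher (6.96 and 2.58), while mrpl36 and mrpl48 near them were lower. The number of neighbours called by DESeq2 was not computed.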
